A study of Mus musculus with 18 samples.

Results

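The 35 genes described here encode the steps that take glucose into the cell and break it down to lactate, the sensors of oxygen that act on hypoxia-inducible factor 1 alpha (HIF-1α), and a group of genes known to be induced through it. They were chosen by name from textbook membership of these pathways, with earlier results of these data known, and make up 35 of the 49585 genes counted in CD45+ leukocytes that stayed in, or left, an inflamed joint or inflamed skin. Members were found in the count table by Ensembl identifier. All 35 were found, and all 35 passed the filter on low counts in both fits.

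Glycolysis splits glucose into pyruvate in the cytosol and yields ATP without oxygen. Lactate dehydrogenase and the proton-coupled monocarboxylate transporters then clear the pyruvate as lactate. When oxygen is plentiful, prolyl hydroxylases of the EGLN family mark HIF-1α for destruction. When oxygen falls, HIF-1α is kept and binds a short core sequence, ACGTG or GCGTG, in front of its targets, which include most glycolytic enzymes and its own regulator Egln3. Neutrophils and inflammatory macrophages are known as strongly glycolytic cells, and inflamed joints and skin are known as oxygen-poor tissues.

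The cells came from Kaede transgenic mice, in which violet light turns a green fluorescent protein red, so that cells lit in a tissue can be traced once they leave it. All mice of the inflamed groups first received OT-II CD4+ T cells polarized to Th1 in culture and were immunised with 100 µg of ovalbumin (OVA) in complete Freund's adjuvant. They were then challenged with 100 µg of heat-aggregated OVA (HAO) in the footpad (joint) or the ear pinna (skin). For these groups, viable CD45+ Kaede red cells were sorted the day after photoconversion, from the tissue (nonmigrated) or from the draining popliteal or auricular LN (migrated). A further pair of groups held cells that the labels describe as migrated to the LN from a joint or an ear that was not inflamed, called steady state here; the labels do not settle which cells these were or how their mice were treated. Titles name PBS and KG for the joint and Naive for the skin, while titles of other groups hold KR. The protocol gives a sort of Kaede red cells, and if KG stands for Kaede green, the joint steady-state libraries hold node cells that were not labelled in the tissue. In both steady-state groups the 6 B cell markers summed to 3030 to 4960 CPM, against 156 to 1120 CPM in the migrated groups, so the steady-state values below compare migrated cells with node cells whose origin is uncertain. Each of the 6 groups had 3 replicates, and each replicate was a pool of cells from several matched young adult male and female mice, so p-values measure the spread between pools.

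Each library held 19239531 to 43814403 counts assigned to genes, and the skin nonmigrated and skin migrated libraries were the shallowest, at 19239531 to 22528895. Levels are given as CPM, counts scaled to a common library size, on one trimmed-mean scale over the 18 libraries, and a total of 3 counts corresponded to 0.0616 to 0.18 CPM. Libraries of one group correlated at 0.9715 to 0.9977 on the log scale, and skin nonmigrated 3 stood furthest from its group, with a mean of 0.9757. Ptprc, which encodes the CD45 of the sort gate, stood at 1160 to 2530 CPM in every library. Transcripts of cells outside the gate were present in the tissue libraries: 6 fibroblast markers summed to 129 to 362 CPM in joint and 60 to 255 CPM in skin nonmigrated libraries and to 1.05 to 2.17 CPM in migrated ones, and all 6 fell at both sites. Platelet markers summed to 90.3 to 365 CPM in nonmigrated and 2.01 to 8.42 CPM in migrated libraries, and endothelial markers to 29.6 to 68.6 CPM and 11.4 to 13.8 CPM. The mix of leukocytes also differed between groups. The summed level of 8 neutrophil markers was 5640 to 17300 CPM in joint nonmigrated, 1720 to 2850 CPM in skin nonmigrated, 39.8 to 104 CPM in joint migrated and 17.7 to 34.3 CPM in skin migrated libraries, where 1 of the 8 markers had no more than 3 counts in any library. The 9 monocyte and macrophage markers summed to 5850 to 8610 CPM, 2420 to 6810 CPM, 288 to 424 CPM and 395 to 546 CPM in the same order. The 6 dendritic cell markers summed to 270 to 413 CPM, 596 to 1790 CPM, 2420 to 6260 CPM and 4650 to 6650 CPM, and T cell markers were also higher in the migrated libraries, at 1100 to 1560 CPM against 119 to 693 CPM. In bulk RNA of this kind, fewer cells of a type and less RNA per cell cannot be told apart, and the part of the cell mix, and of cells outside the gate, in the results was not tested.

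In the joint, most of the pathway was lower in the cells that had left. Of the 35 members, 22 fell in joint migrated relative to joint nonmigrated cells, 3 rose and 10 were not called. A gene was called at an edgeR quasi-likelihood adjusted p below 0.05 with a log2 fold change beyond 1 in either direction, and by this rule 18.4% of the 16777 genes tested were lower and 16% were higher. In the skin, 27 members fell, 1 rose and 7 were not called, against 19.7% of all genes lower and 15.7% higher. The median log2 fold change of the members was -1.36 at the joint and -1.999 in the skin, beside medians of 0.02 and 0.01 over all genes. The joint and skin comparisons share no samples. At both sites 21 members fell and Eno2 rose. Ldhb fell in the joint alone by this rule, Hk1, Pfkp, Ldha, Bnip3l, Ddit4 and Ndrg1 fell in the skin alone, and Pfkfb3 and Adm rose in the joint alone. Pfkm, Slc16a1, Pdk1 and Egln1 were called at neither site. The summed level of the 35 transcripts was 12050 to 13570 CPM in joint nonmigrated and 4947 to 5186 CPM in joint migrated libraries, and 20810 to 25040 CPM in skin nonmigrated and 5334 to 5861 CPM in skin migrated libraries.

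**Figure D1:**
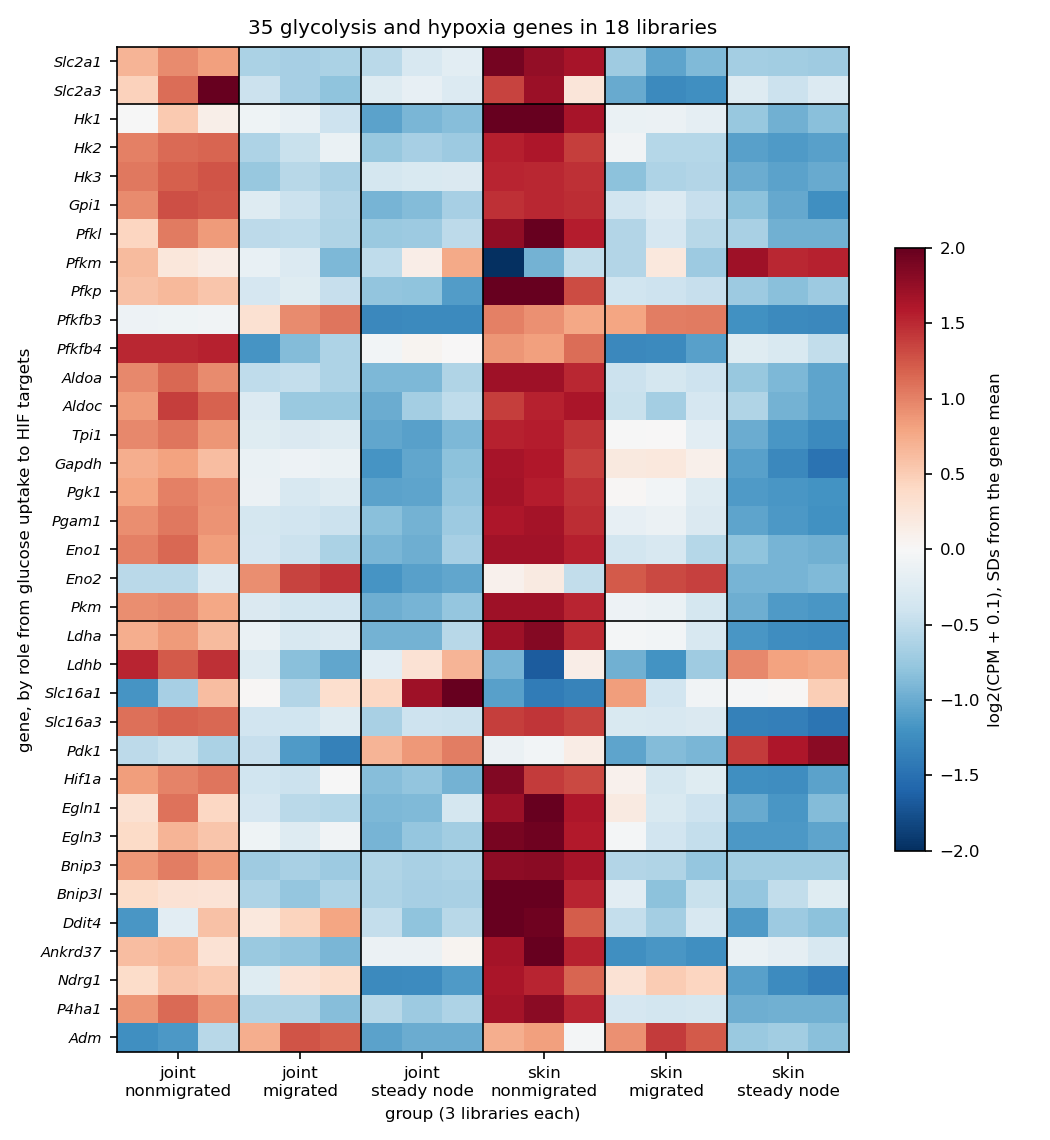
Each row is one of the 35 genes and each column one of the 18 libraries, grouped by site and state; colour is the distance of log2(CPM + 0.1) from the gene's mean over all libraries, in SDs, and horizontal lines part transporters, glycolytic enzymes, lactate and pyruvate genes, oxygen sensing and targets. Most rows are highest in the 3 skin nonmigrated libraries and next highest in the 3 joint nonmigrated libraries, while Eno2 and Adm are high in the migrated libraries and Pdk1 in the steady-state libraries.

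The windows in front of the members were searched for the HIF core sequence, as a description. The members were chosen by name as glycolysis genes and known HIF targets. A share of matches above that of all genes can follow from this choice and says nothing on why the members moved. Pfkm, Slc16a1, Pdk1 and Egln1, called at neither site, are in the same count. RefSeq (GRCm38.p6) held a window of 300 bases, 250 before to 50 after the transcript start, for 32 of the 35 members and for 26742 genes in all. ACGTG or GCGTG, read on both strands, lay in a window of 29 of the 32 members (90.6%) and of 47.0% of all genes. ACGTG alone was found in 68.8% of members and 21.9% of all genes, and GCGTG in 65.6% and 35.4%. The E-box CACGTG, which contains ACGTG and is read by other factors, was found in 18.8% and 8.1%. The members' windows were also richer in G and C, with a median of 62.3% over 45 windows against 53.0% over 32544, and their share of motifs was not compared at equal base content. A match is a string of letters and not a shown binding site. The 250 bases before the start are given for 6 members that fell strongly at both sites and hold a match, with each ACGTG or GCGTG on either strand in capitals.
Hk3, chr13:55021386-55021635, minus strand: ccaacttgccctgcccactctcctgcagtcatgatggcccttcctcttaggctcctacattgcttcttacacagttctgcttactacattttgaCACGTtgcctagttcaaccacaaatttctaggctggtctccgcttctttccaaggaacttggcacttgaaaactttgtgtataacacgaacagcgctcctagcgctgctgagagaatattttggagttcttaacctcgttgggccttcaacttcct
Hk2, chr6:82774455-82774704, minus strand: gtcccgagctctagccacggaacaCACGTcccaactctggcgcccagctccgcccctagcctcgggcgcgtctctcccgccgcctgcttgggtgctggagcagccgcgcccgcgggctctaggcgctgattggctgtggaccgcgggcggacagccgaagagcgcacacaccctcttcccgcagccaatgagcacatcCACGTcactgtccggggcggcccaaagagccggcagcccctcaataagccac
Pfkfb4, chr9:108991652-108991901, plus strand: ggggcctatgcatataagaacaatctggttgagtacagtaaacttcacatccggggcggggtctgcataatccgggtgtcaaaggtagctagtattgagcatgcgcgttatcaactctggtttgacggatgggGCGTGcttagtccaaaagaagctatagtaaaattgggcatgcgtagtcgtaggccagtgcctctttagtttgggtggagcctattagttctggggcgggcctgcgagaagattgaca
Slc16a3, chr11:120948817-120949066, plus strand: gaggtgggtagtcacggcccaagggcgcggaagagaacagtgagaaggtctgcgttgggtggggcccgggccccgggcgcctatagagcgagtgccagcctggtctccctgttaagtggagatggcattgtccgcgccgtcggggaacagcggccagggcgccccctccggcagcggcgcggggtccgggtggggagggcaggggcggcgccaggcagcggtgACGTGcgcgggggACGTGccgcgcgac
Egln3, chr12:54203875-54204124, minus strand: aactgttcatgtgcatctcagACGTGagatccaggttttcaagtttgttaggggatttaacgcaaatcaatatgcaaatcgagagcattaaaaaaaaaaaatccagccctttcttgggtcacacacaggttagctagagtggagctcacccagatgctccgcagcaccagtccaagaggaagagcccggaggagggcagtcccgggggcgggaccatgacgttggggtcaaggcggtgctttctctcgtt
Bnip3, chr7:138909507-138909756, minus strand: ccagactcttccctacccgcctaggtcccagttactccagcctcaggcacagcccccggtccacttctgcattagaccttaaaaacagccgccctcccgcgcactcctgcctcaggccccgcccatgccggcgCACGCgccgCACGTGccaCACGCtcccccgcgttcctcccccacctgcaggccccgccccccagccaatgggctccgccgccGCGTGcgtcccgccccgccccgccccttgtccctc
The Bnip3 window held the most matches of the 6, all of them in the portion nearer the start. The window of Eno2, the member that rose most, held no match.

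Glucose enters leukocytes through the facilitative transporters GLUT1 and GLUT3, encoded by Slc2a1 and Slc2a3. Slc2a1 (chr4:119108711-119137983, mm10) stood at 228, 302 and 268 CPM in joint nonmigrated libraries 1 to 3 and at 55.5, 53.9 and 55.4 CPM in joint migrated libraries. In the skin it stood at 858, 729 and 645 CPM in nonmigrated and 51.1, 35.2 and 42.8 CPM in migrated libraries. The groups did not overlap at either site, and the nonmigrated level was higher in skin than in joint while the migrated levels lay close together. The fall was 4.84-fold in the joint (log2 -2.27 ± 0.16, SE, n = 3 per group; adjusted p = 9.92e-07, edgeR) and 17.3-fold in the skin (log2 -4.12 ± 0.18; adjusted p = 2.95e-08, edgeR). Slc2a3 was more variable between pools, at 99.4, 144 and 262 CPM in joint nonmigrated against 60.3, 52.9 and 48.6 CPM in joint migrated libraries. It fell 3.12-fold in the joint and 3.81-fold in the skin. Joint nonmigrated 3, its highest joint library, also had the highest neutrophil marker sum, 17300 CPM against 5640 and 10300 CPM in joint nonmigrated 1 and 2; a part of this in the Slc2a3 level was not tested.

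Hexokinase traps glucose in the cell by phosphorylating it, and the 3 isozymes measured here are known to differ in where they are expressed. Hk3 (chr13:55005985-55021385), the isozyme characteristic of myeloid cells, showed the largest fall of all 35 members. It stood at 169.5, 231 and 266 CPM in joint nonmigrated and 3.33, 5.32 and 4.26 CPM in joint migrated libraries. In the skin the values were 464, 443 and 414 CPM against 2.93, 4.59 and 4.87 CPM. The fall was 51.6-fold in the joint (log2 -5.69 ± 0.26) and 107-fold in the skin (log2 -6.74 ± 0.27), each far beyond the spread between pools. Hk2 (chr6:82725025-82774454), the inducible isozyme that binds mitochondria, stood at 139, 169 and 174 CPM in joint nonmigrated and 12.3, 16 and 25.4 CPM in joint migrated libraries, 8.97-fold lower. Skin levels went from 312, 342 and 243 CPM to 28, 13.4 and 13.3 CPM, 16.5-fold lower. Hk1, the housekeeping isozyme, did not separate in the same way in the joint. Its values there were 172, 213 and 180.5 CPM in nonmigrated and 166, 163 and 146 CPM in migrated libraries, a log2 difference of -0.25 ± 0.11 that was not called (adjusted p = 0.0865, edgeR). In the skin Hk1 fell 2.34-fold, from 387, 417 and 334 CPM to 163, 164 and 161 CPM.

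Put per kilobase of exon, so that genes can be set side by side, the hexokinase transcripts changed in kind as well as in amount. Hk3 made up 54.8% ± 3.82 (SD, n = 3) of hexokinase transcripts in joint nonmigrated cells and 5.1% ± 1.1 in joint migrated cells, and 56% ± 2.65 and 4.9% ± 1.44 in the skin. Hk1 rose in share from 20.4% ± 2.81 to 81.7% ± 5.43 in the joint and from 20.8% ± 0.71 to 82.2% ± 3.86 in the skin. The shares of the groups did not overlap. The Hk3 share was 13.4% ± 0.24 in joint and 3.2% ± 0.15 in skin steady-state libraries, where neutrophil markers summed to 450 to 880 CPM and 13.3 to 21 CPM. The part of neutrophils in the share was not tested.

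The steps from glucose 6-phosphate to fructose 1,6-bisphosphate hold the main control point of glycolysis. Gpi1, which isomerises glucose 6-phosphate, fell 2.36-fold in the joint and 2.75-fold in the skin. Of the phosphofructokinase subunits, Pfkl (liver type) fell 2.19-fold in the joint, from 97.1, 139 and 125.1 CPM to 55.5, 55.9 and 53.1 CPM, and 3.86-fold in the skin, from 214, 248 and 190.4 CPM to 53.6, 61.9 and 54.3 CPM. Pfkp (platelet type) stood at 259, 266 and 252 CPM in joint nonmigrated and 148, 157 and 138 CPM in joint migrated libraries. The groups did not overlap, but the log2 difference of -0.81 was inside the fold threshold and was not called (adjusted p = 0.00139, edgeR). In the skin Pfkp fell 4-fold, from 619.9, 669.8 and 394 CPM to 143, 142 and 138 CPM. Pfkm (muscle type) was low, at 8.96 to 10.1 CPM in joint nonmigrated and 6.96 to 8.35 CPM in joint migrated libraries, and was called at neither site.

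The bifunctional enzymes that set fructose 2,6-bisphosphate, the activator of phosphofructokinase, went opposite ways in the joint. Pfkfb4 (chr9:108991778-109032228) stood at 122, 122 and 126 CPM in joint nonmigrated and 7.06, 9.83 and 12.8 CPM in joint migrated libraries, a fall of 12.5-fold (log2 -3.64 ± 0.21). In the skin it fell 9.85-fold, from 62.5, 58.7 and 80.1 CPM to 6.28, 6.39 and 7.8 CPM. Pfkfb3, the inducible form with the greater kinase activity, stood at 207, 210.2 and 216 CPM in joint nonmigrated and 332, 702 and 802 CPM in joint migrated libraries. It rose 2.91-fold (log2 1.54 ± 0.27; adjusted p = 0.000454, edgeR), and the 3 migrated libraries all lay above the 3 nonmigrated ones. In the skin the level was high in both, at 753, 674 and 567 CPM and at 582, 761 and 771 CPM, a log2 difference of 0.08 ± 0.26 that was not called. Pfkfb4 held 47.6% ± 0.15 (SD, n = 3) of the Pfkfb3 and Pfkfb4 transcripts per kilobase in joint nonmigrated and 2.6% ± 0.55 in joint migrated cells, and 13.8% ± 3.65 and 1.5% ± 0.19 in the skin. The lowest of the 3 joint migrated values of Pfkfb3 came from joint migrated 1, the library whose dendritic cell markers summed to 2420 CPM against 5280 and 6260 CPM in joint migrated 2 and 3. What part this had in its level was not tested.

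Of the members in the lower part of the pathway, from the aldolases to Pkm, all but Eno2 fell at both sites. Aldoa, Tpi1, Gapdh, Pgk1, Pgam1, Eno1 and Pkm are the abundant forms, and each fell between 2.13-fold (Gapdh) and 4.6-fold (Tpi1) in the joint, and between 3.44-fold (Gapdh) and 7.07-fold (Tpi1) in the skin. Gapdh, glyceraldehyde 3-phosphate dehydrogenase, went from 1021, 1098 and 928 CPM to 472, 485 and 472 CPM in the joint and from 2351, 2249 and 1816 CPM to 641, 649 and 582 CPM in the skin. It is often used as a constant reference transcript, and here nonmigrated and migrated libraries did not overlap at either site. Pgam1, phosphoglycerate mutase, went from 464, 522 and 447 CPM to 117, 112 and 108 CPM in the joint and from 967, 1010 and 833 CPM to 144, 151 and 124 CPM in the skin. Pkm, pyruvate kinase, was the most counted member. It went from 2485, 2561 and 2156 CPM to 780.4, 723 and 718 CPM in the joint, 3.24-fold lower, and from 5137, 5152 and 4371 CPM to 940.5, 909 and 738 CPM in the skin, 5.69-fold lower. The low-abundance aldolase Aldoc moved with Aldoa, 3.74-fold lower in the joint and 4.67-fold lower in the skin. Pgk1, Eno1, Pgam1 and Gapdh share 67.03%, 59.02%, 39.74% and 18.24% of their 100-base windows with other genes, mostly pseudogene copies, and reads that aligned in several places were not counted, so the levels of these 4 are uncertain.

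Enolase, the step before pyruvate kinase, held the clearest exception. Eno1, the general form, went from 1245, 1380 and 1094 CPM to 454, 422 and 364 CPM in the joint and from 2050, 2042 and 1865 CPM to 445, 462 and 381 CPM in the skin. Eno2 (chr6:124760053-124769673), known as neuron-specific enolase, stood at 2.93, 2.92 and 4.36 CPM in joint nonmigrated and 29.1, 55.5 and 63.7 CPM in joint migrated libraries. Skin libraries held 7.67, 8.94 and 3.12 CPM and at 45.6, 52 and 56.2 CPM. The rise was 14.5-fold in the joint (log2 3.86 ± 0.39; adjusted p = 9.74e-06, edgeR) and 7.79-fold in the skin (log2 2.96 ± 0.38; adjusted p = 5.36e-05, edgeR). Its share of enolase transcripts per kilobase went from 0.3% ± 0.12 to 12.2% ± 4.98 (SD, n = 3) in the joint and from 0.4% ± 0.16 to 12.1% ± 2.07 in the skin. The size of this share is uncertain, because 59.02% of the windows of Eno1 are shared with other genes. It also depends on the length used: with the longest transcript the Eno1 share changed by -7.9 and -7.8 points in joint and skin, against -11.9 and -11.7. As with Pfkfb3, joint migrated 1 was the lowest migrated library for Eno2, with a share of 6.8%.

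At the end of the pathway, the lactate exporter gene Slc16a3 fell at both sites and the lactate dehydrogenase genes at a single site each. Ldha, the form that favours lactate, went from 826, 895 and 778 CPM to 475, 424 and 435 CPM in the joint, a log2 difference of -0.90 ± 0.12 that missed the fold threshold (adjusted p = 9.7e-05, edgeR), and from 1538, 1675 and 1351 CPM to 507, 501 and 422 CPM in the skin, 3.2-fold lower. Ldhb, the form that favours pyruvate, fell in the joint from 16.6, 14.3 and 16.1 CPM to 6.92, 5.18 and 4.71 CPM. It was already low in skin nonmigrated cells, at 4.98, 3.45 and 8.37 CPM, and was not called there. Slc16a3 (chr11:120948480-120960868) encodes MCT4, the lactate exporter of highly glycolytic cells. It went from 342, 403 and 380.4 CPM to 16.9, 16.4 and 21.9 CPM in the joint, 20.4-fold lower (log2 -4.35 ± 0.14), and from 599.9, 665 and 573 CPM to 19.9, 19.2 and 20.5 CPM in the skin, 30.9-fold lower (log2 -4.95 ± 0.15). Slc16a1, which encodes the broadly expressed transporter MCT1, was called at neither site, with 20.2, 23.9 and 36 CPM against 29.7, 24.4 and 32.9 CPM in the joint and 20.8, 18.8 and 19.2 CPM against 38.7, 26.1 and 28.9 CPM in the skin. The skin difference of log2 0.67 missed the fold threshold alone (adjusted p = 0.0203, edgeR). Slc16a3 held 92.2% ± 2.06 (SD, n = 3) of the transcripts of these 2 transporters per kilobase in joint nonmigrated and 34.5% ± 2.07 in joint migrated cells, and 96.3% ± 0.37 and 35% ± 4.37 in the skin. Pdk1, a kinase that inhibits pyruvate dehydrogenase, was called at neither site, at 76.9 to 84.5 CPM and 53.9 to 83.7 CPM in joint nonmigrated and migrated libraries. Its log2 difference of -0.68 in the skin missed the fold threshold alone (adjusted p = 0.00176, edgeR).

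**Figure D2:**
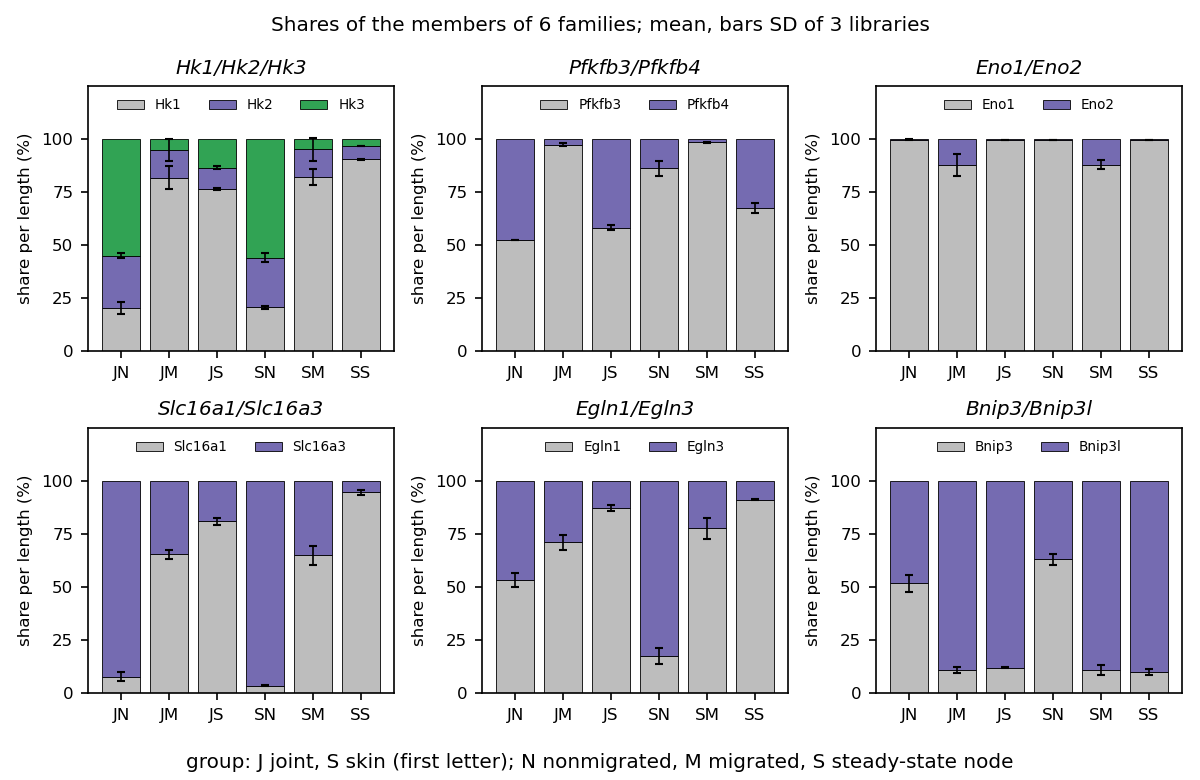
Stacked bars give each gene's mean share, in percent, of the transcripts of its family per kilobase of exon in the 6 groups, with error bars of 1 SD (n = 3 libraries), for hexokinases, Pfkfb enzymes, enolases, lactate transporters, Egln hydroxylases and Bnip3 genes. Hk3, Pfkfb4, Slc16a3, Egln3 and Bnip3 each hold a larger share in nonmigrated than in migrated cells of the same site. The mean Pfkfb4 share is 41.8% in joint and 32.5% in skin steady-state libraries, against 13.8% in skin nonmigrated ones. By this measure of length, the mean Eno2 share is above 10% in the migrated groups alone of these 6, with 6.8% in joint migrated 1.

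Oxygen sensing was represented by Hif1a and the prolyl hydroxylases. Hif1a (chr12:73901375-73947530) fell 2.46-fold in the joint, from 410.4, 456 and 486 CPM to 165, 162 and 221 CPM (log2 -1.30 ± 0.19; adjusted p = 0.00013, edgeR). The fall in the skin was 3.49-fold, from 861, 616 and 581 CPM to 236, 171 and 185 CPM (log2 -1.80 ± 0.19; adjusted p = 1.34e-05, edgeR). Its protein, which is controlled mainly after translation, was not measured. Egln1, the constitutive hydroxylase PHD2, was called at neither site, with log2 differences of -0.50 in the joint and -0.90 in the skin. Both missed the fold threshold alone (adjusted p = 0.00339 and 6.28e-05, edgeR). Egln3 (chr12:54178981-54203860), the inducible hydroxylase PHD3, went from 45.5, 72.7 and 59.7 CPM to 21.1, 15.8 and 21.7 CPM in the joint, 3.03-fold lower. In the skin it went from 533, 576 and 324 CPM to 22.7, 12.9 and 11.1 CPM, 30.8-fold lower (log2 -4.95 ± 0.34; adjusted p = 6.09e-07, edgeR). Egln3 held 46.5% ± 3.33 (SD, n = 3) of Egln1 and Egln3 transcripts per kilobase in joint nonmigrated cells and 82.4% ± 3.96 in skin nonmigrated cells. The shares in migrated cells were 28.9% ± 3.45 and 22.2% ± 4.93.

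Of the 7 HIF targets outside glycolysis, 3 fell in the joint (Bnip3, Ankrd37 and P4ha1) and 6 in the skin, all but Adm. Bnip3 (chr7:138890836-138909519), which marks mitochondria for removal by autophagy, went from 75.2, 96.3 and 72.9 CPM to 5.19, 5.86 and 5.14 CPM in the joint, 15.1-fold lower (log2 -3.91 ± 0.17). In the skin it went from 352, 359 and 276 CPM to 6.52, 6.29 and 4.74 CPM, 56.4-fold lower (log2 -5.82 ± 0.19; adjusted p = 6.86e-09, edgeR). Its relative Bnip3l stood at 132, 126 and 125.2 CPM against 77, 70.2 and 76.8 CPM in the joint. The log2 difference of -0.78 missed the fold threshold and was not called (adjusted p = 0.00208, edgeR). In the skin Bnip3l fell 4-fold, from 335, 408 and 251 CPM to 96.3, 68.5 and 84.4 CPM. Bnip3 made up 51.8% ± 4.06 (SD, n = 3) of the transcripts of Bnip3 and Bnip3l per kilobase in joint nonmigrated, 11% ± 1.26 in joint migrated, 63.1% ± 2.74 in skin nonmigrated and 10.9% ± 2.43 in skin migrated cells. P4ha1, which hydroxylates collagen, fell 4.67-fold in the joint and 6.56-fold in the skin, as did all 6 fibroblast markers by larger folds; their part in its fall was not tested. Ankrd37, a small ankyrin-repeat gene known for its response to hypoxia, fell from 14.8, 15.7 and 10.7 CPM to 3.8, 3.62 and 3.19 CPM in the joint and from 42.8, 65.3 and 37.5 CPM to 2.28, 2.45 and 2.3 CPM in the skin.

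Ddit4, Ndrg1 and Adm were each called at a single site. Ddit4, which encodes the mTORC1 inhibitor REDD1, stood at 19, 35.5 and 60.3 CPM in joint nonmigrated and 46.8, 54.9 and 68.2 CPM in joint migrated libraries, which overlapped and were not called (log2 0.57 ± 0.34; adjusted p = 0.183, edgeR). Without joint nonmigrated 3 the log2 difference was 1.06 and was called (adjusted p = 0.015, edgeR). In the skin Ddit4 fell 4.56-fold, from 169, 146 and 90.7 CPM to 30, 26.2 and 33 CPM. Ndrg1, a stress-responsive gene, stood at 106, 138 and 129 CPM against 49.3, 94.2 and 103 CPM in the joint and was not called, and fell 3.78-fold in the skin, from 522, 453 and 286 CPM to 95.6, 126 and 114 CPM. Adm, which encodes the vasodilator peptide adrenomedullin, was scarce in joint nonmigrated libraries, at 0.301, 0.332 and 0.751 CPM, and higher in joint migrated ones, at 3.51, 6.38 and 6.11 CPM. It rose 11.5-fold (log2 3.52 ± 0.48; adjusted p = 8.81e-05, edgeR). In the skin Adm stood at 3.48, 3.92 and 1.4 CPM in nonmigrated and 4.33, 7.49 and 6.25 CPM in migrated libraries, a log2 difference of 1.04 ± 0.43 that missed the threshold (adjusted p = 0.058, edgeR) and was called without skin migrated 1 (1.23) or without skin nonmigrated 2 (1.31).

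**Figure D3:**
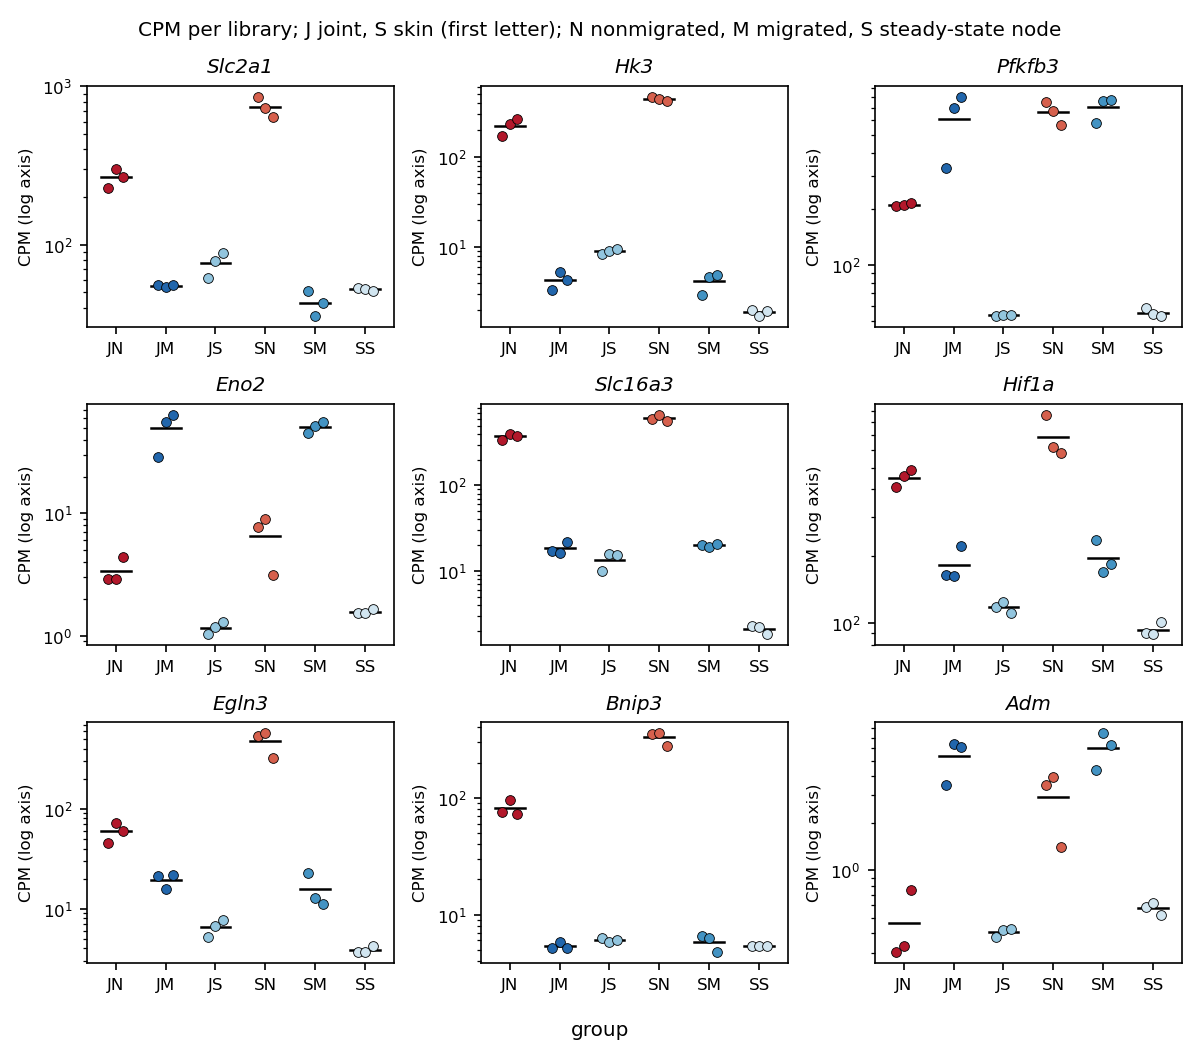
Points are CPM of single libraries on a log axis for Slc2a1, Hk3, Pfkfb3, Eno2, Slc16a3, Hif1a, Egln3, Bnip3 and Adm in the 6 groups, and bars are group means (n = 3). Hk3, Slc16a3 and Bnip3 drop from the tissue to the migrated groups at both sites, and Eno2 rises at both. Pfkfb3 and Adm are lower in joint nonmigrated than in skin nonmigrated libraries.

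Joint and skin were first compared among the cells that had stayed in the tissue. Site went together with a set of libraries. Inflamed joint libraries held 35554698 to 43814403 counts and inflamed skin libraries 19239531 to 22528895. Counts outside any gene were 0.2933% to 0.5619% and 0.0925% to 0.1351% of the total. Site and set of libraries cannot be told apart here, among migrated cells or in the interaction below. In joint nonmigrated relative to skin nonmigrated cells 13 of 35 members were lower, 1 was higher and 21 were not called, against 8.86% of all genes lower and 5.45% higher. The median log2 difference was -0.93 over the members and 0.01 over all genes, and 30 of the 35 differences were negative. The largest were in Egln3 (8.08-fold lower in joint, log2 -3.02 ± 0.31; adjusted p = 0.000107, edgeR), Adm (6.31-fold lower), Bnip3 (4.05-fold lower, log2 -2.02 ± 0.16), Ddit4 (3.55-fold lower), Ankrd37 (3.54-fold lower) and Ndrg1 (3.39-fold lower). Slc2a1, Hk1, Pfkp, Pfkfb3, Gapdh, Pkm and Bnip3l were the other members called lower. Of these, Hk1 lost its call without joint nonmigrated 1 or 3 or skin nonmigrated 1 or 2, Pkm without joint nonmigrated 3 or skin nonmigrated 1 or 2, and Pfkp without skin nonmigrated 2. Ldhb was the member called higher in joint, 2.79-fold. Pfkfb4 was also on the joint side, at a log2 difference of 0.88 that was not called. Thus 6 of the 13 lower members were targets outside glycolysis, and the sensor Egln3 led the list.

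The makeup of the tissue cells differed between the sites. Neutrophil markers summed to 5640 to 17300 CPM in joint and 1720 to 2850 CPM in skin nonmigrated libraries, with 6 of 8 called higher in joint. Of the 9 monocyte and macrophage markers none was called. For T cells 5 of 6 markers, and for dendritic cells 5 of 6 markers, were called lower in joint. B cell markers lay the other way, at 121 to 292 CPM in joint and 10.8 to 25.1 CPM in skin nonmigrated libraries. Keratinocyte markers, which should be absent from a CD45+ sort, summed to 26.7 to 318 CPM in skin and 0.93 to 2.3 CPM in joint nonmigrated libraries, where 3 of the 6 had no more than 3 counts. Skin nonmigrated 3 had the lowest keratinocyte sum (26.7 CPM), the lowest dendritic cell sum (596 CPM) and the highest monocyte and macrophage sum (6810 CPM) of its group. It was the lowest skin nonmigrated library for Slc2a1, Hk2, Pfkp, Egln3, Bnip3, Ddit4, Ndrg1 and Adm. The same held for most of the other members whose skin values are given above per library, while Pfkfb4 and Ldhb were highest in it. Without it 19 members were lower and 2 higher in joint, while calls over all genes rose too. Of 17931 genes tested, 2084 were then lower and 1636 higher, against 1486 and 914 of 16777 with it. The part of cell makeup in the difference between the sites was not tested.

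None of the 35 members was called between joint migrated and skin migrated cells by edgeR, and 8 had an unadjusted p below 0.05. Over all genes 0.578% were called lower and 0.56% higher. The differences ran from -0.44 (P4ha1) to 0.93 (Ddit4) on the log2 scale with a median of -0.09. For Slc2a1 the difference was 0.35, with an interval of 2 SEs from 0.04 to 0.67, and for Egln3 it was 0.33, with an interval from -0.25 to 0.92. Bnip3 differed by -0.11 (interval -0.44 to 0.22) and Hk3 by 0.06 (interval -0.41 to 0.52). The interval of Ddit4, 0.23 to 1.63, reached past a log2 difference of 1, as did those of Slc2a3 (to 1.11) and Ankrd37 (to 1.06), and that of Adm reached -1, so for these 4 the data leave room for a difference of that size.

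The 2 migration changes were then compared directly with an interaction term, coded as the change in the joint minus the change in the skin. This term uses the same 12 libraries as the comparisons above and is not separate evidence. Of the 35 members 9 were called, all 9 positive, against 3.96% of all genes called positive and 2.17% negative, and 31 of 35 values were positive (median 0.69, all genes -0.01). The called members were Egln3 (3.35 ± 0.42; adjusted p = 0.0015, edgeR), Ddit4 (2.76 ± 0.50), Adm (2.48 ± 0.63), Ankrd37 (2.42), Bnip3 (1.90), Slc2a1 (1.84), Pfkfb3 (1.46), Bnip3l (1.23) and Pfkp (1.19). For Egln3, Ankrd37, Bnip3 and Slc2a1, which fell at both sites, a positive value means a smaller fall in the joint. Bnip3l, Pfkp and Ddit4 fell in the skin and were not called in the joint (log2 0.57 for Ddit4), and Pfkfb3 and Adm rose in the joint. A further 6 members, Hk1, Pfkl, Gapdh, Pgam1, Pkm and Ldha, passed the adjusted p with terms between 0.66 and 0.98. Without the fold threshold, 1338 of all 16777 genes passed the adjusted p. The calls of Pfkfb3 and Adm were the least firm: leaving out a single library took the adjusted p of Pfkfb3 above 0.05 in 10 of 12 cases (0.0588 to 0.0903, edgeR) and that of Adm in 9 (0.0552 to 0.0939). Hk3, Slc16a3, Hk2 and Pfkfb4, which fell strongly at both sites, had no called interaction. That of Hk3 was called without joint migrated 1 (1.23), joint nonmigrated 3 (1.198) or skin nonmigrated 3 (1.09), and that of Ndrg1 without joint migrated 1 (1.61) or skin nonmigrated 3 (1.535). Without skin nonmigrated 3, 13 members were called positive and 1 negative, while calls over all genes rose too. Of 17931 genes tested, 1504 were then positive and 1106 negative, against 665 and 364 of 16777 with it.

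**Figure D4:**
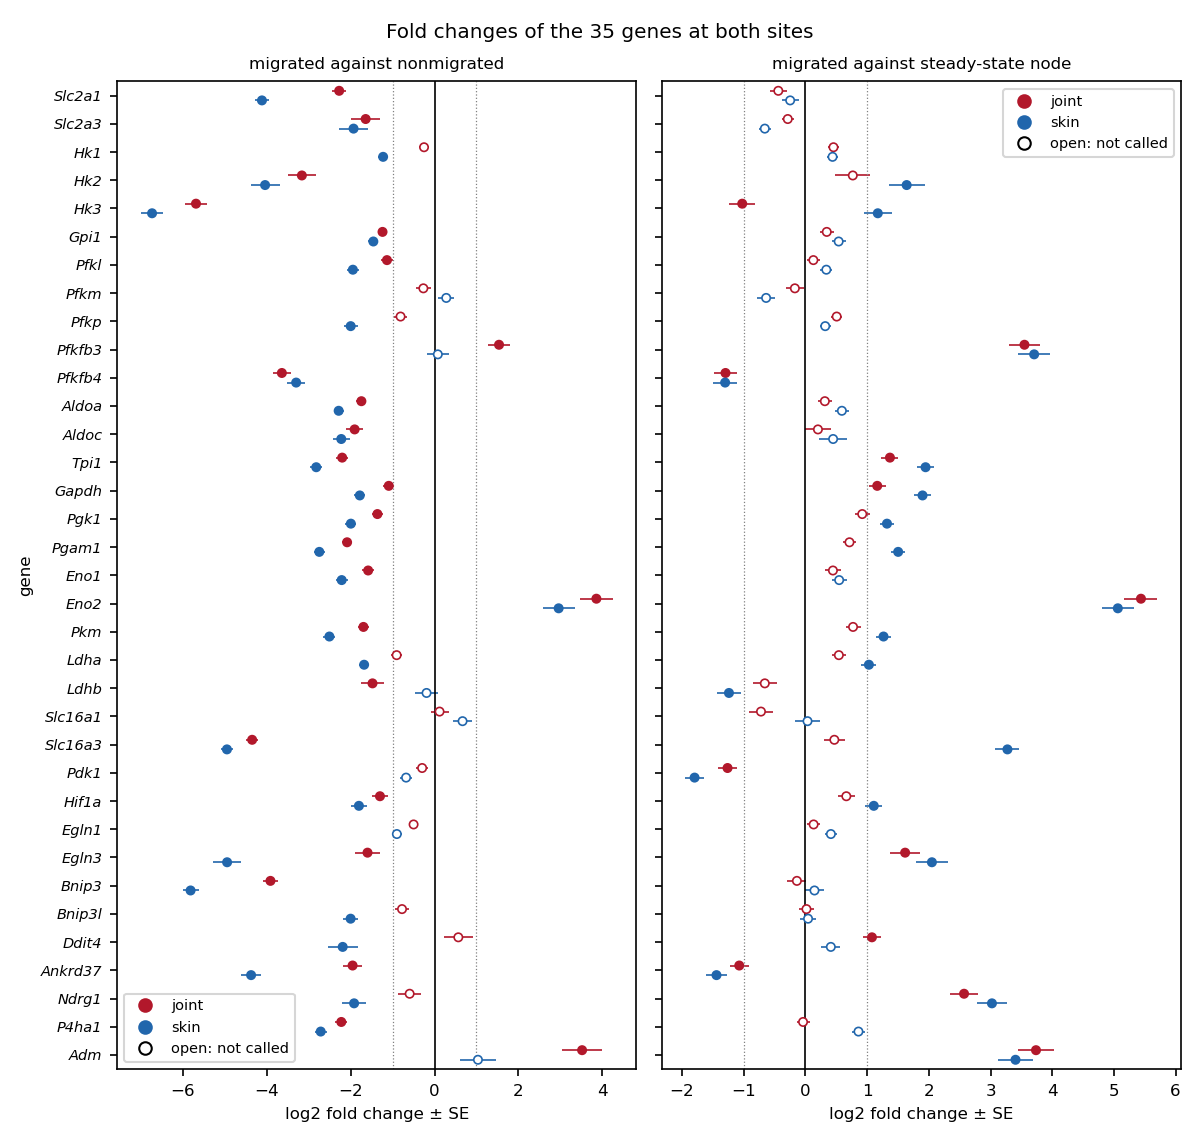
Each row is one of the 35 genes, with the log2 fold change ± SE for joint (red) and skin (blue); the left panel gives migrated against nonmigrated cells and the right panel migrated against steady-state node cells, filled points are called and dotted lines mark -1 and 1. On the left 22 joint and 27 skin points are filled below -1, and on the right 8 joint and 15 skin points are filled above 1.

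The cells that had migrated from inflamed tissue were next compared with the steady-state node libraries, whose cells may or may not have migrated from the tissue. In joint migrated cells 8 members were higher than in joint steady-state cells, 4 were lower and 23 were not called, against 16.9% of all genes higher and 7.31% lower. In the skin 15 were higher, 4 lower and 16 not called, against 21.5% and 15%. The member medians were 0.45 and 0.55 on the log2 scale, with -0.02 and 0.00 over all genes. These comparisons reuse the migrated libraries, and the joint counts, 8 and 4 of 35, lie not far above their background.

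The largest rise was in Eno2, which stood at 1.02, 1.18 and 1.29 CPM in joint and 1.52, 1.53 and 1.65 CPM in skin steady-state libraries. It was 43.4-fold higher in joint migrated (log2 5.44; adjusted p = 6.65e-09, edgeR) and 33.4-fold higher in skin migrated cells (log2 5.06; adjusted p = 4.27e-09, edgeR). Adm stood at 0.378, 0.417 and 0.421 CPM in joint and 0.583, 0.625 and 0.519 CPM in skin steady-state libraries and was 13.3-fold and 10.6-fold higher in joint and skin migrated cells. Pfkfb3 stood at 52.6 to 53.8 CPM and 53.2 to 58.3 CPM in the steady-state libraries and was 11.7-fold and 13.1-fold higher. Ndrg1 was 5.94-fold and 8.13-fold higher, and Egln3 3.06-fold and 4.14-fold higher. Tpi1 and Gapdh also rose at both sites, and Ddit4 rose in the joint (log2 1.08). In the skin Hk2, Hk3, Pgk1, Pgam1, Pkm, Ldha, Slc16a3 and Hif1a rose too. The skin Ldha value, log2 1.03, lay so near the threshold that leaving out any of 4 libraries (skin migrated 1 or 2, skin steady state 2 or 3) ended its call. Likewise the Ddit4 call in the joint was lost without joint migrated 3 (0.93) or joint steady state 2 (0.99), and the Hif1a call in the skin without skin migrated 1 (0.92). Pfkfb4 and Ankrd37 were lower at both sites, Ankrd37 in the joint not without joint migrated 3 or joint steady state 3. Pdk1 was lower as well, 2.4-fold in joint and 3.47-fold in skin migrated cells, with 148, 162 and 175 CPM in joint and 209.9, 234 and 258 CPM in skin steady-state libraries. Ldhb was lower in the skin.

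Steady-state libraries of the 2 sites differed in 2 members, both higher in the joint, against 3.23% of all genes higher and 0.655% lower. Hk3 stood at 8.32, 9.1 and 9.43 CPM in joint and 1.97, 1.69 and 1.96 CPM in skin steady-state libraries (4.75-fold). Slc16a3 stood at 9.9, 15.5 and 15.3 CPM against 2.29, 2.18 and 1.8 CPM (6.42-fold; adjusted p = 2.92e-06, edgeR). Both are members with the highest levels in the nonmigrated libraries, and neutrophil markers summed to 450 to 880 CPM in these joint and 13.3 to 21 CPM in these skin libraries. The migrated libraries did not differ in this way, with Slc16a3 at 16.4 to 21.9 CPM in joint and 19.2 to 20.5 CPM in skin. As a result the steady-state comparison gave a lower call for Hk3 in joint (-1.02) and a higher call in skin (1.17), both near the fold threshold and lost without joint migrated 1 (-0.90), joint steady state 3 (-0.97) or skin migrated 3 (0.99), and a called rise of Slc16a3 in skin alone (log2 3.27). Cell makeup also differed between migrated and steady-state libraries: 6 of 6 proliferation genes were higher at both sites (617 to 842 CPM in joint and 462 to 815 CPM in skin migrated against 48.6 to 122 CPM), 5 of 6 dendritic cell markers in joint and 6 of 6 in skin were higher, and 6 of 6 B cell markers were lower. Of the 9 monocyte and macrophage markers, 9 were higher in skin migrated than in skin steady-state libraries (395 to 546 CPM against 140 to 166 CPM), and 3 were higher and 1 lower in joint (288 to 424 CPM against 213 to 268 CPM). All 8 neutrophil markers were lower in joint migrated than in joint steady-state libraries, and 2 of 8 were higher in skin. Their part in the values was not tested.

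The pathways around glycolysis did not move as one. List counts below for migrated against nonmigrated cells stand beside 18.4% of all genes lower and 16% higher in the joint. For the skin these shares were 19.7% and 15.7%. Of 18 other glycolysis genes tested, 6 fell and 1 rose in the joint (median log2 -0.68), and 2 fell and 2 rose in the skin (-0.12). Eno3, the muscle enolase, went with Eno2: it stood at 8.69 to 9.37 CPM in joint nonmigrated and 78.6 to 150 CPM in joint migrated libraries, and rose at both sites (log2 3.73 and 3.46). Gpd1, a glycerol 3-phosphate dehydrogenase, fell in the joint (-3.79) and stood at -0.12 in the skin, and so did Adpgk, an ADP-dependent glucokinase (-2.70), which stood at 0.18 in the skin. The interaction of Adpgk was called at -2.88. Fbp1, of gluconeogenesis, was at 1.44 to 1.81 CPM in joint nonmigrated libraries and had at most 1 count in any joint migrated library.

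The pentose phosphate pathway, which makes NADPH from glucose, had 5 of 8 genes lower in the joint and 4 of 8 in the skin, with medians of -1.29 and -0.64. Pgd fell by 2.73 and 2.27, G6pdx, its entry enzyme, by 2.62 and 1.49, H6pd by 2.02 and 1.87, and Taldo1 by 1.29 and 1.42 on the log2 scale in joint and skin. Glycogen genes split, with 8 of 14 lower and 1 higher in the joint and 8 lower and 4 higher in the skin. Pygl, liver-type glycogen phosphorylase, fell (-2.25 and -1.16), as did Ppp1r3b (-2.36 and -4.41) and Ppp1r3d (-2.87 and -1.93), which target a phosphatase to glycogen, and Stbd1, a glycogen-binding protein, rose (2.37 and 1.51).

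Few genes of the mitochondrial side were called. Of 16 tricarboxylic acid cycle genes none was called in the joint by edgeR, where 8 had an unadjusted p below 0.05, and Suclg2 alone rose in the skin (1.22). The medians were -0.10 and 0.25. Of 12 genes for the entry of pyruvate into mitochondria, Pcx, pyruvate carboxylase, rose in the joint (1.44), Pcx (1.33) and Pdp2, a pyruvate dehydrogenase phosphatase (1.37), rose in the skin, and none fell at either site.

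Of 13 other genes of oxygen sensing, 3 rose and none fell in the joint, against 16% of all genes higher and 18.4% lower. In the skin 2 rose and 1 fell, against 15.7% and 19.7%. The counts of rises lay near these shares. Vhl, which recruits the ligase that degrades HIF-1α, rose at both sites (1.38 and 1.39). Arnt2, a partner of HIF-1α best known from neurons, and Hif3a rose in the joint (3.59 and 2.47) and stood at 0.30 and 0.59 in the skin, and the interaction of Arnt2 was called at 3.29. Of 34 other genes known as HIF targets, 18 fell and 3 rose in the joint and 24 fell and 1 rose in the skin, with medians of -1.12 and -1.60. Pfkfb2 and Gbe1 of these also stand in the glycolysis and glycogen lists. Hmox1, heme oxygenase, fell by 5.12 and 7.46 and Ier3 by 5.36 and 5.76 on the log2 scale in joint and skin. Nos2, inducible nitric oxide synthase, stood at 79.2 to 171 CPM in joint and 1870 to 2800 CPM in skin nonmigrated libraries, had at most 4 counts in any joint migrated library and was at 1.37 to 2.7 CPM in skin migrated libraries. In joint nonmigrated relative to skin nonmigrated cells 11 of the 34 were lower and 2 higher, against 8.86% and 5.45% of all genes. In the interaction 5 were called positive, against 3.96% of all genes. Against steady state, 8 of 33 were higher and 2 lower in the joint, beside 16.9% and 7.31% of all genes. For the skin 16 were higher and 2 lower, beside 21.5% and 15%. Skeletal muscle transcripts, which could carry glycolytic genes into a joint or ear sample, summed to 6.07 to 12.8 CPM in every group, and at least 1 of the 6 had no more than 3 counts in each.

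**Figure D5:**
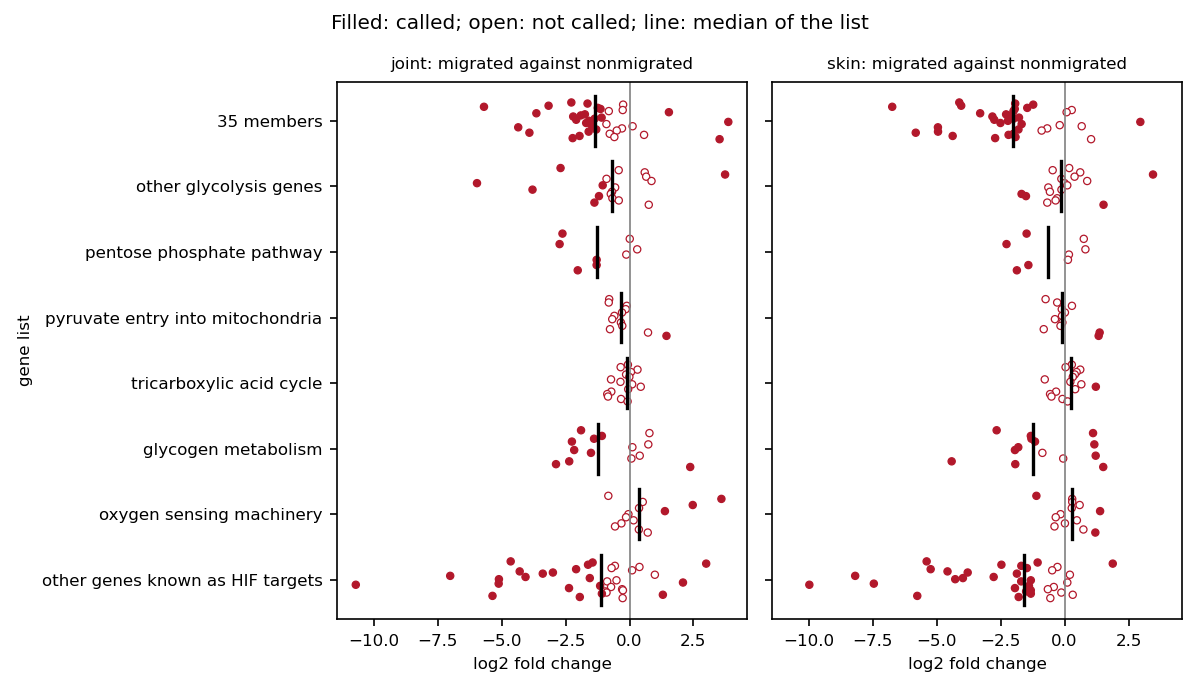
Points are log2 fold changes of migrated against nonmigrated cells for the 35 members and the genes of 7 other lists, in joint and skin, and each line is the list's median. The members and the other HIF targets lie mostly below 0 (medians of -1.36 and -1.12 in joint, -1.999 and -1.60 in skin), while tricarboxylic acid cycle genes and pyruvate entry genes lie close to 0.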

How the data were processed

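RNA-Seq was performed on pooled, sorted CD45+ cells, paired-end with 100-base reads; the protocol names a Kaede red sort, which the titles of the joint steady-state libraries (KG) put in doubt for that group. Per the labels and the study's methods, the authors trimmed reads with Trim Galore, aligned them to mm10 with TopHat2 and deposited raw read counts per Ensembl gene from HTSeq count under default settings. Whether the libraries were stranded is not given in the sources used here, so the 16 members that overlap annotated genes on the other strand (Slc2a1, Hk1, Hk2, Hk3, Gpi1, Pfkm, Pfkp, Pfkfb3, Aldoa, Tpi1, Gapdh, Hif1a, Bnip3, Ankrd37, Ndrg1 and Adm) could hold some of those genes' reads. Reads aligned in several places were left uncounted (9.24% to 12.7% per library); 5 summary rows were removed and 0 columns of other series were present. Replicates of a group differed by far more than counting noise.

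Counts were scaled by TMM and tested with edgeR 4.0.16 (R 4.3.3, limma 3.58.1; quasi-likelihood F test, group as the only term, filterByExpr with a minimum count of 10), in place of the DESeq2 of the study's methods. The 12 libraries of the inflamed design and the 12 lymph node libraries were fitted separately (16777 and 17107 genes). Called means a Benjamini-Hochberg adjusted p below 0.05 over all genes and an absolute log2 fold change above 1, the threshold of the study's methods. SEs were derived from the F statistics and the log2 fold changes. Isozyme shares used CPM per kilobase of union exon. The fit was tested on simulated data. Alternatives were DESeq2 1.42.0, other scalings and filters, the threshold, a replicate block, all 18 samples in one fit and each library left out. Members and lists were chosen with earlier results of these data known. Values per library are given for the 8 members with the largest mean change among those called alike at both sites, members with an interaction, isozyme families that split at the joint, and Hif1a; in the comparisons of sites and with steady state at most the 6 largest called members are described, and at most 4 called genes per other list. Slc2a3, Ndrg1, Pdk1 against steady state and the skin, interaction and joint-versus-skin values of the other lists lie outside this rule and were added after their values were seen.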

Additional observations from a re-analysis of the deposited data

Results flagged for a closer look

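The change from nonmigrated to migrated cells differed between joint and skin for 15 members by the interaction term (edgeR, adjusted p below 0.05, 3 libraries in each of 4 groups). By the same rule 1338 of all 16777 genes passed, 840 positive and 498 negative. The difference, joint minus skin on the log2 scale, was 3.35 for Egln3 (adjusted p = 0.0015, edgeR), 2.76 for Ddit4 (0.00822), 2.48 for Adm (0.0361), 2.42 for Ankrd37 (0.00177) and 1.90 for Bnip3 (0.00119). It was 1.84 for the glucose transporter gene Slc2a1 (adjusted p = 0.00131, edgeR), 1.46 for Pfkfb3 (0.0353), 1.23 for Bnip3l (0.0113) and 1.19 for Pfkp (0.0119). It was below 1 for 6 enzymes, at 0.98 for Hk1, 0.81 for Pfkl, 0.69 for Gapdh, 0.66 for Pgam1, 0.81 for Pkm and 0.78 for Ldha. None of the 15 was called between the migrated libraries of the sites, though Ddit4 (46.8 to 68.2 CPM in joint, 26.2 to 33 CPM in skin) and Ankrd37 (3.19 to 3.8 CPM, 2.28 to 2.45 CPM) did not overlap there. Egln3 stood at 45.5 to 72.7 CPM in joint nonmigrated and 324 to 576 CPM in skin nonmigrated libraries, and at 15.8 to 21.7 CPM and 11.1 to 22.7 CPM in the migrated ones.

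The change from steady-state to migrated cells also differed between the sites for 5 members, in a test added after seeing the data, in which 10.1% of 17107 genes passed an adjusted p below 0.05 (edgeR). Joint minus skin, the difference was -2.81 on the log2 scale for Slc16a3, -2.20 for Hk3, -0.90 for P4ha1, -0.79 for Pgam1 and -0.74 for Gapdh. For Slc16a3 and Hk3 the steady-state libraries held the gap, and neutrophil markers summed to 450 to 880 CPM in joint and 13.3 to 21 CPM in skin steady-state libraries. Their part in these differences was not tested.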

How the results depend on the processing

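Leaving out single libraries gave 1890 values of single members, of which 1825 kept their direction and call, 39 lost and 26 gained a call and none reversed; 9 other settings gave 2485, with 2392, 22, 71 and none. With each library left out the members called higher and lower numbered 3 to 4 and 22 for joint migration, 1 to 2 and 27 for skin migration, 1 to 2 and 10 to 19 for joint against skin nonmigrated, 7 to 13 and 0 to 1 for the interaction, 7 to 9 and 2 to 4 for joint and 13 to 15 and 4 for skin against steady state. Without a minimum fold change, the threshold's own effect, 2 were higher for skin migration, 2 higher and 26 lower for joint against skin nonmigrated, 15 higher for the interaction, 20 higher and 8 lower for joint and 24 higher for skin against steady state, and 5 higher and 1 lower between steady-state groups. At an adjusted p below 0.001 none was higher for joint against skin nonmigrated (0) or for the interaction (0). DESeq2 and one fit of all 18 samples each gave 2 higher for skin migration and 1 lower for the interaction. So did the replicate block (2 and 1), which otherwise gave 3 higher and 22 lower for joint migration, 27 lower for skin migration, 1 and 14 for joint against skin nonmigrated and 8 higher for the interaction, where it ended the call of Pfkfb3 (1.37; adjusted p = 0.0668, edgeR). Whether replicate numbers match pools between groups is not given in the sources. Between nonmigrated and migrated libraries, same-number correlations were 0.021 to 0.254 in joint and 0.073 to 0.173 in skin. Of these pairs, 2 of 3 in joint and 3 of 3 in skin correlated best with their own number. Pairing by pool is thus possible, and the main fit did not use it. Same-number correlations of the other pairs of groups ran from -0.353 to 0.19.

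Shares depended on the length used, as lengths enter them directly. Migrated minus nonmigrated, in percentage points, without length correction they moved to -31.7 for Slc2a1 in skin, 54.4 and 54.1 for Hk1 in joint and skin, 35.2 and 8.4 for Pfkfb3, 0.6 and -0.7 for Ldha, 54.6 and 57.6 for Slc16a1 and -32 and -43.4 for Bnip3. With the longest transcript they moved to 57.6 for Hk1 in skin, 42.3 for Pfkfb3 in joint, -7.9 and -7.8 for Eno1 (from -11.9 and -11.7), and 54.2 and 57.2 for Slc16a1. No share changed direction.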
